A study of Mus musculus with 4 samples.

Results

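Copy number was examined at 9 genes of the retinoblastoma (RB) pathway and the G1 phase of the cell cycle, namely Rb1, Cdkn2a, Cdkn2b, Cdkn1b, Ccnd1, Ccne1, Cdk4, Cdk6 and E2f1, chosen by name among the 18700 gene names on the array. Rb1 had 15 probes of its own name, Cdk6 had 13, Cdkn2a had 2, and Ccnd1, Ccne1 and E2f1 had 1 each. No probe carried the name of Cdkn2b, Cdkn1b or Cdk4, and these 3 genes were read from probes within 100 kb of the place that gene order gives them. The DNA came from liver tumours of 4 mice (239, 240, 244 and 252), each FAH-/- and Trp53-/-, that is, lacking the last enzyme of tyrosine breakdown and the p53 tumour suppressor. These mice received NTBC, a drug that spares them from toxic tyrosine products, at 7.5 mg per L of drinking water until the dose was lowered to 2.5% of that for 6 months. Each tumour was hybridised against 1 pool of liver DNA from 3 FAH+/+ Trp53+/+ littermates, and the labels call tumours and pool alike male. The animals' age is not given in the sources used here, 1 tumour stands for each animal, and the pool enters as 1 control sample, so the spread among normal livers is in none of the tests. Copy ratios are given as log2 of tumour over pool, centred on each array's autosomal median, and positions are those of mm9. In diploid cells, 1 copy lost from every cell would give -1 and 1 copy gained 0.58. Normal cells in the sample, or more copies per cell, would shrink these levels, and neither was measured.

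All 4 arrays lay on 1 slide and were read in 1 scan, with 98.8% to 99.9% of spots well above background in each colour. Tumour 252 went against its label: probes of the X chromosome had a median of 0.73 and those of Y -2.43 there. In tumours 239, 240 and 244 the medians were -0.088, -0.11 and -0.30 on X and -0.31, -0.14 and -1.20 on Y. Means without tumour 252 are therefore given beside the own-probe and regional means of the 9 genes and the regional means of other pathway genes. Every adjusted p below is limma's with Benjamini-Hochberg adjustment over all genes of the table. The arrays correlated with each other over autosomal probes at r = 0.68 to 0.86, and all 4 share the pool. The 2 Trp53 probes read 0.088, 0.084, 0.059 and 0.068 and the 2 Fah probes 0.30, 0.019, -0.19 and 0.045 in tumours 239, 240, 244 and 252. The deleted stretch of either gene is not described in the sources used here, and the genotype labels were not checked by these values.

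RB1 holds E2F transcription factors in check and so keeps a cell from entering S phase. D-type cyclins with CDK4 or CDK6, followed by cyclin E with CDK2, phosphorylate RB1 and release E2F1 and its relatives, which switch on genes of DNA replication. The INK4 inhibitors p16INK4a (from Cdkn2a) and p15INK4b (from Cdkn2b) block CDK4 and CDK6, and p27KIP1 (from Cdkn1b) blocks cyclin E-CDK2. Cdkn2a also encodes p19ARF, which stabilises p53, the protein these mice lack. In many liver cancers the brakes of this circuit are lost or silenced, and in some cyclin D1 or cyclin E1 is amplified.

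The probes on which the values of these genes rest are 60-base oligonucleotides. For Cdkn2a, Ccnd1, Ccne1 and E2f1 every probe of the gene is shown, since 1 or 2 sequences carry the whole measurement, and for Rb1 and Cdk6 the probes with the lowest and the highest mean over tumours are shown, since they stand for how far probes of 1 gene spread. All are in lower case, 5′ to 3′, as the array design in the files gives them, and no strand is stated there. An mm9 annotation was not used here, so whether a probe falls in an exon or an intron is not resolved.
Cdkn2a, chr4:88927265-88927324: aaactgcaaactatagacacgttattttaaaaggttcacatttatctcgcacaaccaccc
Cdkn2a, chr4:88936288-88936347: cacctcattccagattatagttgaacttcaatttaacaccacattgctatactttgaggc
Ccnd1, chr7:152119601-152119660: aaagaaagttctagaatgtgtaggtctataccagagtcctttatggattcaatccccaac
Ccne1, chr7:38889649-38889708: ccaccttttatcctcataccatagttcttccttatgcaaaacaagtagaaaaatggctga
E2f1, chr2:154387568-154387627: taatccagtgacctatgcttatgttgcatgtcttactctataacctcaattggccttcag
Rb1 lowest, chr14:73656216-73656275: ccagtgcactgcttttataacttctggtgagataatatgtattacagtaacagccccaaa
Rb1 highest, chr14:73722939-73722998: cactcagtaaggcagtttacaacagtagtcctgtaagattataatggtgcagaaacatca
Cdk6 lowest, chr5:3363010-3363069: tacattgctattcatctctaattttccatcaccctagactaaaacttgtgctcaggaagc
Cdk6 highest, chr5:3468086-3468145: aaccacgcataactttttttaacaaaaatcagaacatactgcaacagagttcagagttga

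The first comparison asks whether the 9 genes themselves were gained or lost in the tumours. On their own probes the means over tumours ran from -0.17 at Cdkn2a to 0.066 at Ccnd1. By limma over 18702 genes, 0 of the 9 passed the 0.05 threshold, against 32.7% of all genes, and 0 had an unadjusted p under 0.05 (0 passed with robust limma too). With normexp background correction of the raw signals 3 passed, Rb1 as lower and Cdkn2a and Ccnd1 as higher, against 42.9% of all genes. The 95% intervals of the 9 means reached no lower than -0.37 and no higher than 0.26, and therefore held neither the level of 1 copy lost from every diploid cell nor that of 1 copy gained. Their median mean was -0.10, beside 0.023 over all genes. In single tumours the values reached from -0.46, at Cdkn2a in tumour 244, to 0.29, at Ccnd1 in tumour 239. No member lay at -1 or lower in any tumour, as 0.877% of all genes did.

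Regions, the mean of all probes within 1 Mb of a gene with its own included, rest on 86 to 181 probes and so follow larger segments. Regional means over tumours ran from -0.087 at Cdkn2b to 0.043 at Ccnd1. Again 0 of 9 passed limma's adjusted threshold, against 9.26% of all genes, and 0 had an unadjusted p under 0.05. Counting each gene in each tumour as a pair, a region at or above 0.2 was found in 0 of 36 pairs (8.13% over all genes). A region at or below -0.2 was found in 3 of 36 (9.53% over all genes). All 3 were in tumour 244, at Cdkn2a, Cdkn2b and Cdkn1b, and 29.3% of all genes lay as low in that tumour, against 4.34% in 239, 1.75% in 240 and 2.71% in 252. Without tumour 244 the count was 0, and with each array centred on the mode of its probes, which lowers tumour 244 by 0.11, it was 6.

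**Figure D1:**
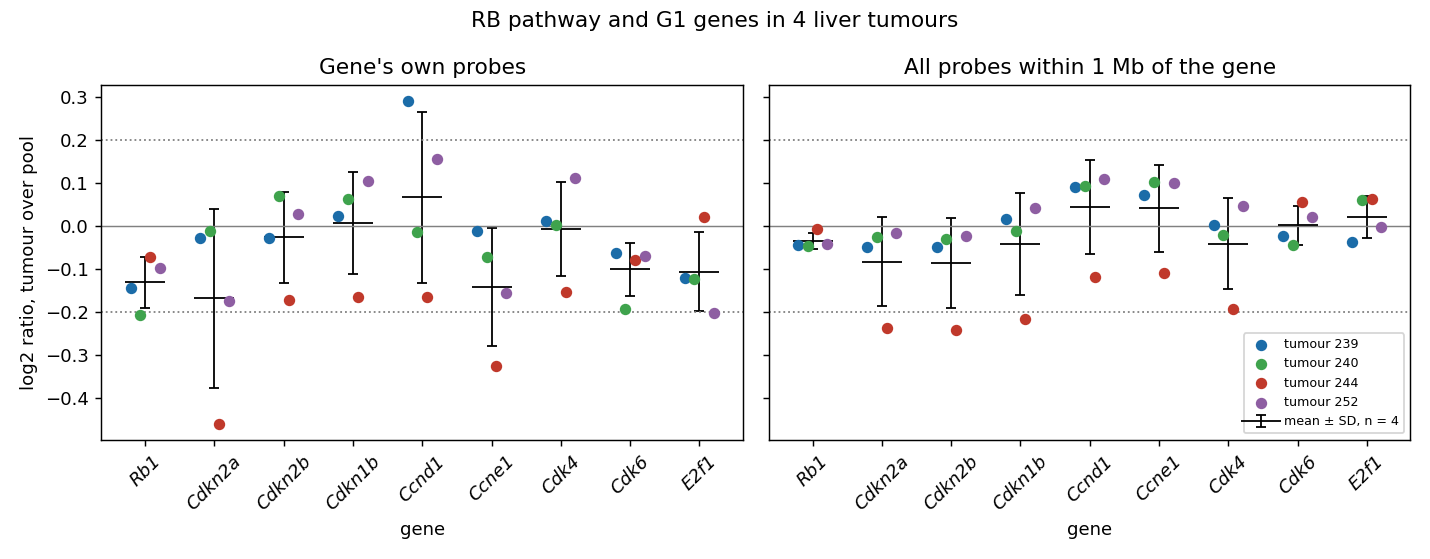
Log2 ratio of tumour over pool (y axis) of the 9 genes (x axis) on their own probes (left) and on all probes within 1 Mb (right). Each point is 1 tumour, bars are the mean ± SD of 4 tumours, and dotted lines mark 0.2 and -0.2. On the right, tumour 244 is the lowest point at 6 genes and 3 of its points lie below -0.2.

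Rb1 encodes the pocket protein at the centre of the pathway. Its 15 probes, chr14:73595475-73722998, averaged -0.15, -0.21, -0.073 and -0.097 in tumours 239, 240, 244 and 252. All 4 tumours lay below 0, with tumour 240 lowest, and the mean was -0.13 ± 0.059 (SD, n = 4) with a 95% interval of -0.26 to 0.0012 (adjusted p = 0.114; -0.14 without tumour 252). Of all genes, 23.5% likewise lay below 0 in all 4 tumours. The region around Rb1 read -0.045, -0.046, -0.0066 and -0.043, with a mean of -0.035 ± 0.019 (SD, n = 4; adjusted p = 0.450; -0.033 without tumour 252). Rb1 was thus lower on its own probes than in its surroundings by 0.11, 0.18, 0.075 and 0.061 in tumours 239, 240, 244 and 252. That difference averaged -0.11 ± 0.054 (SD, n = 4) and passed narrowly (adjusted p = 0.047). With each tumour left out in turn it missed the threshold: adjusted p = 0.075 without 239, 0.168 without 240, 0.109 without 244 and 0.087 without 252. With the median of probes in place of their mean it was -0.045 (adjusted p = 0.494).

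The probes within Rb1 spread far more than the tumours did. Averaged over tumours, single Rb1 probes ran from -0.69 to 0.37, with a median of -0.051 and an SD between probes of 0.33, beside 0.36 over all autosomal probes. The lowest probe, printed above, read -0.57, -0.82, -0.93 and -0.42 in tumours 239, 240, 244 and 252, and the highest read 0.28, 0.39, 0.52 and 0.28. Both kept their sign in every tumour. Between pairs of tumours the 15 probes correlated at r = 0.66 to 0.91 (a description over 15 probes that share the pool and their base composition). Over all autosomal probes r was 0.68 to 0.86, a similar range. Of the 15 probes, 6 were below 0 in all 4 tumours, 4 were above and 5 were mixed. Among all autosomal probes 28.3% were below 0 in all 4 tumours and 27.7% above. In tumours 239, 240 and 244 the lowest stretch of 5 neighbouring probes in the region, chr14:73627505-73656275, consisted of Rb1 probes, and it averaged -0.46, -0.55, -0.41 and -0.21 in tumours 239, 240, 244 and 252. Of all genes, 34.8%, 24.0% and 56.2% had a stretch at least as low within 1 Mb in tumours 239, 240 and 244. Next to Rb1, the 3 probes of Itm2b, a transmembrane protein gene, averaged -0.040 (adjusted p = 0.634).

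**Figure D2:**
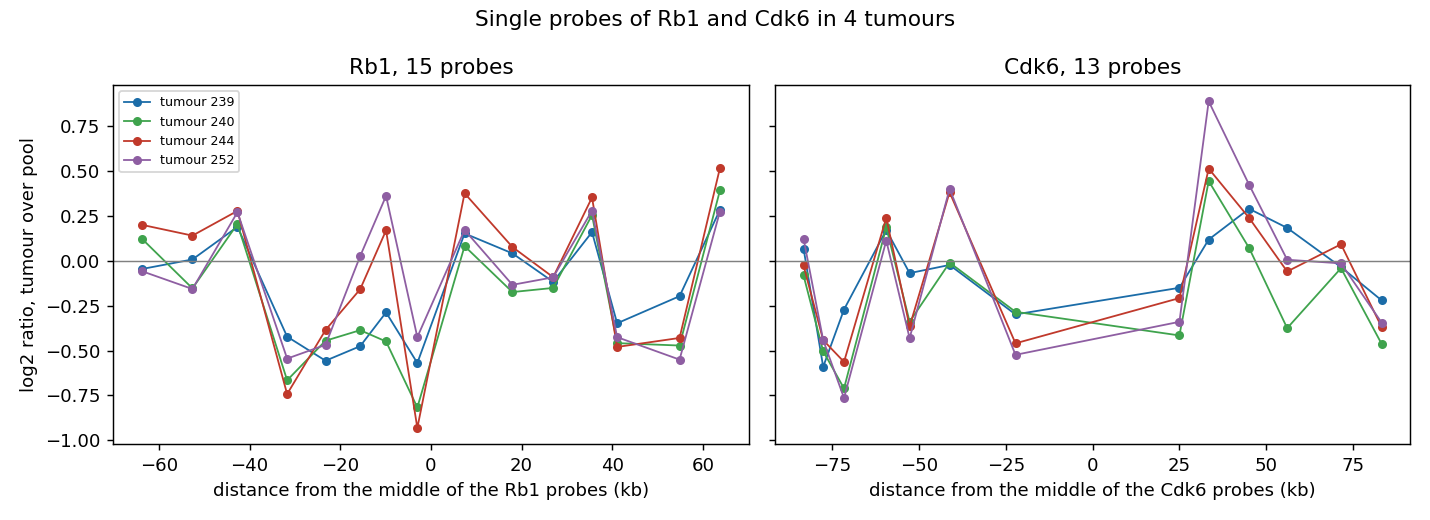
Log2 ratio of each probe (y axis) against its distance in kb from the middle of the gene's probes (x axis) for the 15 probes of Rb1 (left) and the 13 of Cdk6 (right), 1 line per tumour. The 4 lines share much of their course from probe to probe but part at some probes, over a range from -0.93 to 0.89. Signs differ between tumours at 5 probes of Rb1 and 4 of Cdk6.

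Cdkn2a, the gene of p16INK4a and p19ARF, showed the lowest single value among the 9 genes. Its 2 probes, chr4:88927265-88936347, averaged -0.028, -0.013, -0.46 and -0.17 in tumours 239, 240, 244 and 252. Tumour 244 stood lowest, with -0.45 and -0.47 at the 2 probes, tumour 252 had -0.32 at the first and -0.034 at the second, and tumours 239 and 240 lay near 0 at both. The mean was -0.17 ± 0.21 (SD, n = 4), with a 95% interval of -0.37 to 0.029 (adjusted p = 0.162; -0.17 without tumour 252 and -0.072 without tumour 244). Its direction turned under other signal corrections, to 0.029 with an intensity trend removed and 0.23 with normexp background correction (adjusted p = 0.043).

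Around Cdkn2a the 121 probes within 1 Mb averaged -0.050, -0.027, -0.24 and -0.018 in tumours 239, 240, 244 and 252. The mean was -0.083 ± 0.10 (SD, n = 4; adjusted p = 0.307; -0.10 without tumour 252 and -0.031 without tumour 244). In tumour 244 the region sat at the level of its whole chromosome, -0.24 against -0.23, and the 2 gene probes lay 0.23 below the other probes within 1 Mb. In tumour 252 they lay 0.16 below them, and in tumours 239 and 240 0.022 and 0.014 above, so the 4 tumours did not share a direction (mean -0.087 ± 0.12 SD, n = 4, adjusted p = 0.216). In tumours 244 and 252 the lowest 5 neighbouring probes of the region were not at Cdkn2a but at chr4:89695081-89859003, and the lowest stretches of the other tumours overlapped this one. It averaged -0.69, -0.65, -0.81 and -0.65, but a single probe carried it. That probe read -2.64, -2.58, -2.82 and -2.46 in tumours 239, 240, 244 and 252, and the other 4 probes of the stretch averaged -0.20, -0.17, -0.30 and -0.20. Without this probe the regional mean of Cdkn2a was -0.062 ± 0.10 (SD, n = 4).

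**Figure D3:**
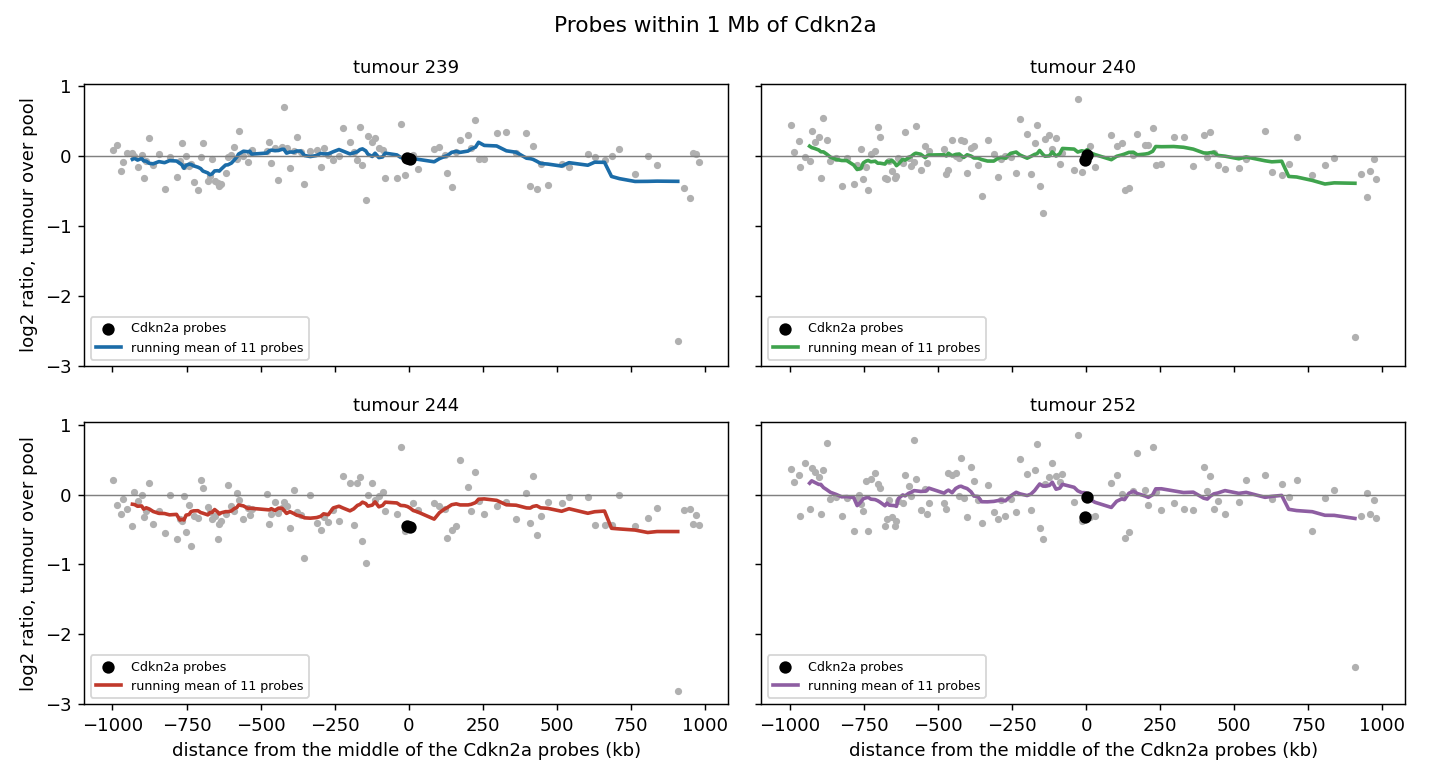
Log2 ratio of every probe within 1 Mb of Cdkn2a (y axis) against distance in kb from the gene's probes (x axis), 1 panel per tumour. Black points are the 2 Cdkn2a probes and the line is a running mean of 11 probes. In tumour 244 the line stays below 0 across the window and both black points lie near -0.46, while in tumours 239 and 240 the points lie near 0. In all 4 panels the line drops at the right end, where 1 probe is far lower than the rest.

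Cdkn2b, the gene of p15INK4b, lies directly next to Cdkn2a and had no probe of its name. It was read from 11 probes within 100 kb of the Cdkn2a edge, chr4:88843162-89035288, which include both Cdkn2a probes and 3 of the transcript ENSMUST00000129527, so its values are not independent of those of Cdkn2a. They averaged -0.029, 0.070, -0.17 and 0.027 in tumours 239, 240, 244 and 252, lowest in tumour 244 and above 0 in tumours 240 and 252. The mean of -0.026 ± 0.11 (SD, n = 4) did not pass (adjusted p = 0.779; -0.044 without tumour 252), and it was 0.023 without tumour 244. Against the wider surroundings these probes were higher in all 4 tumours, by 0.022, 0.11, 0.077 and 0.056 (adjusted p = 0.137), as 32.7% of all genes were. The region read -0.049, -0.030, -0.24 and -0.025, with a mean of -0.087 ± 0.10 (SD, n = 4; adjusted p = 0.291; -0.11 without tumour 252). The 2 probes of ENSMUST00000129908, the next named transcript beyond this window, averaged -0.11, -0.15, -0.41 and -0.31 and passed as lower (adjusted p = 0.033).

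Cdkn1b, the gene of p27KIP1, was placed between 2810454H06Rik and Ddx47 on chromosome 6 and read from 21 probes at chr6:134754833-134937884. They averaged 0.024, 0.062, -0.16 and 0.10 in tumours 239, 240, 244 and 252. Tumour 244 was below 0 and the other 3 above, with a mean of 0.0062 ± 0.12 (SD, n = 4; adjusted p = 0.951; -0.026 without tumour 252). That mean took the other sign under several settings, down to -0.18 with normexp (adjusted p = 0.051). The region read 0.016, -0.012, -0.22 and 0.043, so that tumour 244 alone lay past -0.2, and averaged -0.043 ± 0.12 (SD, n = 4; adjusted p = 0.641; -0.071 without tumour 252 and 0.016 without tumour 244). Against the wider surroundings the 21 probes were higher by 0.0085, 0.083, 0.059 and 0.070 (adjusted p = 0.194), and lower by 0.12 on average with normexp. On the far side of Cdkn1b, the single probe of Ddx47, an RNA helicase gene, read -0.12, -0.33, -0.56 and -0.34 (adjusted p = 0.015), and the probe of 2810454H06Rik averaged -0.10 (adjusted p = 0.367).

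Among the genes that drive the G1 to S step, Ccnd1 encodes cyclin D1, a partner of CDK4 and CDK6 that is amplified in some human liver cancers. Its only probe, chr7:152119601-152119660, near the end of chromosome 7, read 0.29, -0.014, -0.17 and 0.16 in tumours 239, 240, 244 and 252. Tumours 239 and 252 were above 0 and tumours 240 and 244 below, and the mean of 0.066 ± 0.20 (SD, n = 4) rested on tumour 239 for its sign, being -0.0082 without it (adjusted p = 0.567; 0.037 without tumour 252). With normexp it was 0.24 and passed (adjusted p = 0.044). The 117 probes within 1 Mb gave a tighter picture: 0.091, 0.092, -0.12 and 0.11, with 3 tumours close together above 0 and tumour 244 below. Over 4 tumours the region averaged 0.043 ± 0.11 (SD, n = 4; adjusted p = 0.613; 0.021 without tumour 252, and -0.056 with normexp). Without tumour 244 it was 0.098 and passed as higher (adjusted p = 0.029), where 22.9% of all genes' regions also passed. The neighbouring probe of ENSMUST00000128057 read 0.074, -0.29, -0.85 and -0.40 (adjusted p = 0.069), below 0 in 3 tumours and lowest in tumour 244.

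Ccne1 encodes cyclin E1, the activator of CDK2. Its only probe, chr7:38889649-38889708, read -0.012, -0.072, -0.33 and -0.16 in tumours 239, 240, 244 and 252, below 0 in all 4 tumours and lowest in tumour 244. The mean was -0.14 ± 0.14 (SD, n = 4; adjusted p = 0.151; -0.14 without tumour 252), and 0.013 with normexp. The region, by contrast, was above 0 in 3 tumours: 0.071, 0.10, -0.11 and 0.099, averaging 0.041 ± 0.10 (SD, n = 4; adjusted p = 0.614; 0.022 without tumour 252, and -0.0091 over 2 Mb). Without tumour 244 the regional mean was 0.091 and passed as higher (adjusted p = 0.033). The single probe was therefore lower than its surroundings in every tumour, by 0.084, 0.18, 0.22 and 0.26, a mean difference of -0.18 ± 0.075 (SD, n = 4; adjusted p = 0.012). With normexp the difference was 0.012, and its adjusted p was 0.057 without tumour 244 and 0.053 without tumour 252. Among genes with 1 probe, 26.7% were lower than their surroundings by this test. On either side, the 6 probes of Uri1, a prefoldin-like chaperone gene, averaged -0.16 (adjusted p = 0.127), and the probe of 1600014C10Rik read -0.86, -0.73, -1.05 and -0.85 (limma adjusted p = 0.000389), low in all 4 tumours alike.

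Cdk4 encodes the kinase partner of D-type cyclins and had no probe of its name. Placed between Cyp27b1 and Agap2 on chromosome 10, it was read from 18 probes at chr10:126437486-126623289, most of which carry the names of its close neighbours. Their mean was 0.012, 0.0026, -0.15 and 0.11 in tumours 239, 240, 244 and 252, below 0 in tumour 244 alone. Over tumours it was -0.0068 ± 0.11 (SD, n = 4; adjusted p = 0.945; -0.046 without tumour 252 and 0.042 without tumour 244). The region read 0.0021, -0.021, -0.19 and 0.047, just short of -0.2 in tumour 244, with a mean of -0.041 ± 0.11 (SD, n = 4; adjusted p = 0.620; -0.071 without tumour 252 and 0.0095 without tumour 244). Against the wider surroundings the 18 probes were higher by 0.012, 0.026, 0.046 and 0.073 (adjusted p = 0.331), but lower, by 0.087 on average, with normexp. The genes that flank the Cdk4 position gave different pictures: Cyp27b1, which activates vitamin D, read 0.46, 0.54, 0.54 and 0.59 (adjusted p = 0.00111), and Agap2 read 0.046, 0.071, -0.32 and 0.072 (adjusted p = 0.778). Between these genes lay 3 probes, which averaged 0.34, -0.67 and -0.015 over tumours in order of position. The lowest of them read -0.17, -0.72, -1.16 and -0.65. Cyp27b1 was high in all 4 tumours alike, whereas Agap2 was low in tumour 244 alone.

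Cdk6, the other kinase of D-type cyclins, had 13 probes at chr5:3351352-3517971, near the start of chromosome 5. They averaged -0.063, -0.19, -0.078 and -0.069 in tumours 239, 240, 244 and 252, below 0 in all 4 tumours with tumour 240 lowest. The mean was -0.10 ± 0.062 (SD, n = 4; adjusted p = 0.208; -0.11 without tumour 252). The region lay at -0.024, -0.045, 0.056 and 0.020, with a mean of 0.0017 ± 0.045 (SD, n = 4; adjusted p = 0.977; -0.0044 without tumour 252), and its sign turned under 6 of 14 alternatives. Cdk6 was lower than its surroundings by 0.045, 0.17, 0.15 and 0.10, or -0.12 ± 0.057 (SD, n = 4; adjusted p = 0.037). The adjusted p was 0.138 without tumour 240, 0.141 without tumour 244 and 0.098 without tumour 252. As at Rb1, its probes spread widely, from -0.58 to 0.49 over the means of 4 tumours. They correlated between tumours at r = 0.68 to 0.96 (a description over 13 probes that share the pool and their base composition), beside 0.68 to 0.86 over all autosomal probes. The 2 probes printed above read -0.27, -0.71, -0.56 and -0.76 at the lowest and 0.12, 0.45, 0.51 and 0.89 at the highest. Fam133b, the nearest named gene, averaged -0.036 over 3 probes (adjusted p = 0.658), and no named gene with probes lay between Cdk6 and the start of the chromosome.

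E2f1 encodes the transcription factor that RB1 restrains. The only probe of its name, chr2:154387568-154387627, read -0.12, -0.12, 0.020 and -0.20 in tumours 239, 240, 244 and 252, below 0 in 3 tumours and close to 0 in tumour 244. The mean was -0.11 ± 0.092 (SD, n = 4; adjusted p = 0.215; -0.074 without tumour 252), and 0.14 with normexp. Around it 173 probes averaged -0.037, 0.060, 0.063 and -0.0030, a mean of 0.021 ± 0.049 (SD, n = 4; adjusted p = 0.726; 0.029 without tumour 252). Its sign turned with centring on the mode (-0.012) and with normexp (-0.011). The probe lay below its surroundings in all 4 tumours, as 28.1% of genes did, by 0.084, 0.18, 0.042 and 0.20, or -0.13 ± 0.077 (SD, n = 4; adjusted p = 0.042). With normexp this difference was 0.15 (adjusted p = 0.012), the opposite direction. It had an adjusted p of 0.149 without tumour 240, 0.058 without tumour 244 and 0.148 without tumour 252.

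Both named flanks of E2f1 passed as lower on their own probes, as 15.1% of all genes did. Of the 40 genes within 1 Mb of E2f1, 9 passed as higher and 7 as lower, against 17.6% and 15.1% of all genes, with a median of 0.044. Necab3, a calcium-binding protein gene, read -0.24, -0.16, -0.20 and -0.34 (adjusted p = 0.021). Pxmp4, a peroxisomal membrane protein gene, read -0.69, -0.96, -0.78 and -0.99 over 2 probes (limma adjusted p = 0.00047). The lowest 5 neighbouring probes of the region lay at chr2:153813852-153857223, over the secreted-protein genes Bpifa2 and Bpifa6, and averaged -0.91, -0.86, -1.27 and -1.03 in tumours 239, 240, 244 and 252. Here too 1 probe carried the stretch, at -4.18, -3.76, -3.77 and -3.97, and the other 4 averaged -0.096, -0.13, -0.64 and -0.30. Without that probe the regional mean of E2f1 was 0.044 ± 0.048 (SD, n = 4).

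A stretch of 5 probes averaging -0.5 or lower lay within 1 Mb of 3, 6, 7 and 5 of the 9 genes in tumours 239, 240, 244 and 252, against 28.7%, 32.2%, 47.4% and 32.3% of all genes. A stretch of 0.5 or higher lay near 0, 1, 1 and 2 of them, against 9.18%, 20.4%, 39.4% and 38.8%. Cdkn2a and Cdkn2b, which share a window, count the same stretch in every tumour, the one carried by a single probe. By the median of the 5 probes, a summary chosen after the data were seen that 1 probe cannot carry, low stretches lay near 1, 1, 5 and 1 of the 9 genes, against 23.6%, 27.4%, 46.7% and 35.6% of all genes. In tumours 239, 240 and 252 the 1 gene was E2f1, and in tumour 244 Cdkn1b, Ccnd1, Ccne1 and Cdk4 joined it.

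The test of genes against their surroundings put 4 of 9 members past the threshold, Rb1, Ccne1, Cdk6 and E2f1, all lower. Over all genes 47.7% passed in either direction and 22.4% as lower, so the share of members that passed in either direction was near that of the table; all 4 lay on the lower side. With normexp 7 members passed (61.1% of all genes), and with the median of probes 2 (42.1%). Leaving out tumour 239 left 3 (51.7% of all genes) and leaving out tumour 240 left 1 (31.6%). By limma without tumour 244 or without tumour 252, 0 members passed (30.2% and 31.5% of all genes), with 3 unadjusted p-values under 0.05 in each fit. The share of genes that passed was 55.8% among genes with 1 probe and 29.1% among those with 10 or more.

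In tumour 244 the members' regions were lowest or highest along with their whole chromosomes, though not all to the same degree. The difference of region from chromosome there was 0.11 at Ccnd1, 0.12 at Ccne1 and -0.060 at Rb1. Tumour 244 was the tumour in which chromosomes 4, 6, 7 and 10 lay low, at -0.23, -0.25, -0.23 and -0.25, while in the other 3 tumours these chromosomes lay between -0.046 and 0.0030. Cdkn2a and Cdkn2b lie on chromosome 4, Cdkn1b on 6, Ccnd1 and Ccne1 on 7 and Cdk4 on 10, and all 6 were lowest in tumour 244. Chromosomes 14, 5 and 2, which carry Rb1, Cdk6 and E2f1, stood at 0.054, 0.095 and 0.11 in that tumour, and these 3 regions were highest there. The median region of the 4 inhibitors of the pathway (Rb1, Cdkn2a, Cdkn2b and Cdkn1b) was -0.23 in tumour 244 and that of the 5 drivers -0.11, with 0.034 over all genes. In the other tumours the inhibitors' median lay between -0.047 and -0.021 and the drivers' between 0.0021 and 0.060. The median over all genes there was between 0.0021 and 0.026. Cdkn2a and Cdkn2b share most of their regional probes, so their values are not independent, and each median depends on which chromosomes carry the genes. These medians are descriptions of single arrays, with no test.

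**Figure D4:**
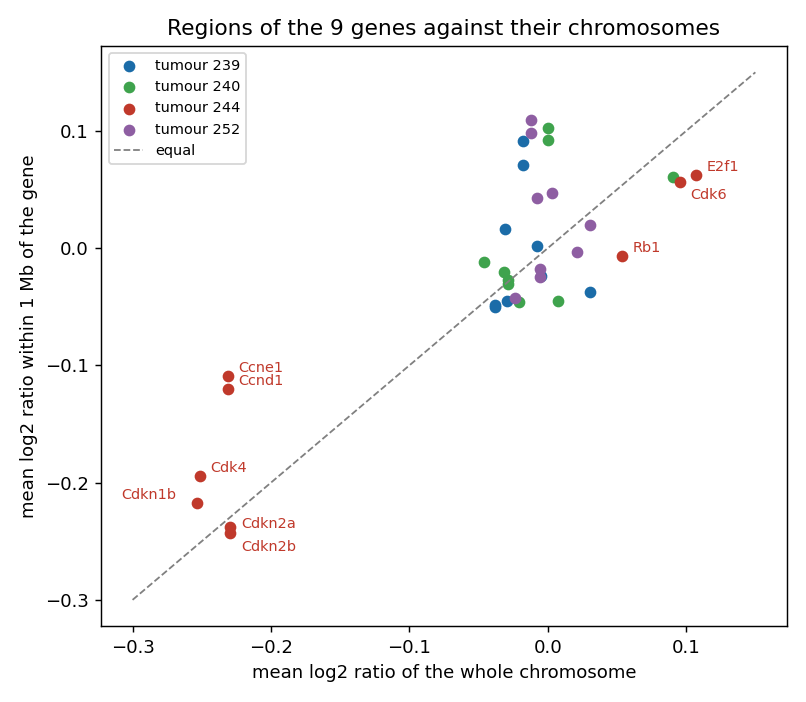
Mean log2 ratio within 1 Mb of each of the 9 genes (y axis) against the mean of its whole chromosome (x axis), 1 point per gene and tumour; the dashed line marks equal values and the points of tumour 244 are named. Tumour 244 has 6 genes at the lower left, where chromosome and region are both low, and Ccnd1 and Ccne1 lie above the line in all 4 tumours.

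Ccnd1 and Ccne1 stood off from chromosome 7 in the same way in every tumour. The Ccnd1 region exceeded its chromosome by 0.11, 0.092, 0.11 and 0.12 in tumours 239, 240, 244 and 252, or 0.11 ± 0.012 (SD, n = 4), and the Ccne1 region by 0.089, 0.10, 0.12 and 0.11, or 0.11 ± 0.014 (SD, n = 4). Regions lay above their chromosome in all 4 tumours at 4 members, which include Cdkn1b and Cdk4 (50.9% of autosomal genes), and below it at 4, Rb1, Cdkn2b, Cdk6 and E2f1 (22.5%). Ccnd1 and Ccne1 were the only 2 members at 0.05 or more above their chromosome in all 4 tumours, a level that 16.7% of autosomal genes reached. No member lay 0.05 or more below its chromosome in all 4, which 6.68% of genes did. The Cdkn2a region kept within 0.012 of chromosome 4 in each tumour, with a mean difference of -0.0074 ± 0.0066 (SD, n = 4), and Cdkn1b lay 0.042 ± 0.0078 (SD, n = 4) above chromosome 6.

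Beyond the 9 genes, 60 further genes of the pathway were listed in 6 families by textbook role, and 53 had probes. On own probes 11 passed as higher and 10 as lower by limma's adjusted threshold, together 21 of 53, against 32.7% of all genes. On regions 2 passed as higher and 4 as lower, 6 of 53, against 5.5% higher and 3.76% lower over all genes. With each array centred on the mode 3 regions passed (4.81% of all genes). By limma without tumour 239 or without tumour 252, 0 regions passed, with 11 and 11 at an unadjusted p under 0.05, and 0.0% and 0.0% of all genes' regions passed in those fits. Without tumour 244, 11 of the 53 passed, against 22.9% of all genes. The median regional mean was 0.0022, beside 0.016 over all genes.

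Pocket proteins and their partners, which carry RB-family repression to chromatin, had 1 of 10 regions called, Lin52, as lower. Lin52, a subunit of the MuvB core that joins the pocket proteins p107 and p130 in the DREAM complex, read -0.41, -0.18, -0.37 and -0.23 in tumours 239, 240, 244 and 252 over its region on chromosome 12. The regional mean was -0.30 ± 0.11 (SD, n = 4; adjusted p = 0.023; -0.32 without tumour 252), and its 7 own probes averaged -0.50 ± 0.071 (SD, n = 4; adjusted p = 0.00153). Rbbp7 and Suv39h1, named after their values were seen, lie on the X chromosome, and their regions stood at 0.76 and 0.72 in tumour 252, the level of X there. The pocket protein genes Rbl1 and Rbl2, named here after their values were seen, had regional means of 0.12 ± 0.040 (SD, n = 4) and 0.051 ± 0.22 (SD, n = 4), and neither region passed (adjusted p = 0.071 and 0.743; 0.14 and 0.093 without tumour 252). On own probes Rbl1 passed as higher, as 17.6% of all genes did. Its 6 probes averaged 0.22 ± 0.070 (SD, n = 4; adjusted p = 0.023; 0.26 without tumour 252). The 6 probes of Rbl2 averaged 0.16 ± 0.29 (SD, n = 4) and did not pass (adjusted p = 0.269).

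Cyclins and CDKs had 2 of 9 regions called, both lower (3.76% of all genes) and both of the CDK-activating kinase that switches on CDK4 and CDK6. Mnat1, its assembly factor, read -0.43, -0.20, -0.39 and -0.25 over its region on chromosome 12, a mean of -0.32 ± 0.11 (SD, n = 4; adjusted p = 0.022; -0.34 without tumour 252), with -0.23 ± 0.12 (SD, n = 4) on its 15 own probes (adjusted p = 0.032). Ccnh, its cyclin, read -0.22, -0.24, -0.44 and -0.15 over its region on chromosome 13, a mean of -0.26 ± 0.13 (SD, n = 4; adjusted p = 0.039; -0.30 without tumour 252). The 3 own probes of Ccnh read 0.16, 0.0080, -0.27 and 0.14, so 3 tumours were above 0 there while all 4 regions were below (mean 0.0091 ± 0.20 SD, n = 4, adjusted p = 0.944). Cdk7, the kinase of the same complex, had a regional mean of -0.082 ± 0.11 (SD, n = 4) and did not pass (adjusted p = 0.324; -0.11 without tumour 252).

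Among E2F and DP factors 1 of 9 regions was called, E2f6, a repressing E2F on chromosome 12. It read -0.39, -0.21, -0.37 and -0.22 in tumours 239, 240, 244 and 252, at or below -0.2 in all 4, with a mean of -0.29 ± 0.095 (SD, n = 4; adjusted p = 0.022; -0.32 without tumour 252) and -0.33 ± 0.13 (SD, n = 4) on its 2 own probes (adjusted p = 0.00931). Lin52, Mnat1 and E2f6 all lie on chromosome 12 and read alike over their regions, so their calls may not be separate results. Whether these regions followed chromosome 12 as a whole was not tested. The CDK inhibitors p18 and p21, from Cdkn2c and Cdkn1a, had 0 of 2 regions called. The region of Cdkn1a, a direct p53 target and named after its values were seen, was above 0 in all 4 tumours at 0.059, 0.17, 0.16 and 0.15 and missed the threshold (adjusted p = 0.068; 0.13 without tumour 252). Of all genes, 29.7% likewise had regions above 0 in all 4 tumours. The only probe of Cdkn1a went the other way, at -0.33, -0.50, -0.086 and -0.080 (limma adjusted p = 0.056). Without tumour 252 that probe averaged -0.31 and passed as lower (adjusted p = 0.031).

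Turnover and upstream regulators had 1 of 10 regions called, and E2F target genes 1 of 13, both higher. Skp2, the ubiquitin ligase subunit that marks p27 for destruction, read 0.22, 0.18, 0.42 and 0.31 over its region on chromosome 15. All 4 tumours were above 0 and 3 were past 0.2, with a mean of 0.28 ± 0.11 (SD, n = 4; adjusted p = 0.024; 0.27 without tumour 252) and 0.33 ± 0.24 (SD, n = 4) on its 4 own probes (adjusted p = 0.033). Tk1, the thymidine kinase gene on chromosome 11 and named after its values were seen, read 0.12, 0.12, 0.15 and 0.14, a narrow range around a mean of 0.13 ± 0.015 (SD, n = 4; adjusted p = 0.041; 0.13 without tumour 252). Over all 53 genes a region at or above 0.2 was found in 14 of 212 gene-by-tumour pairs (8.13% over all genes), 10 of them in tumour 244, where 19.2% of all genes lay as high. A region at or below -0.2 was found in 27 (9.53% over all genes), of which 17 were in tumour 244, 5 in 239, 2 in 240 and 3 in 252.

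**Figure D5:**
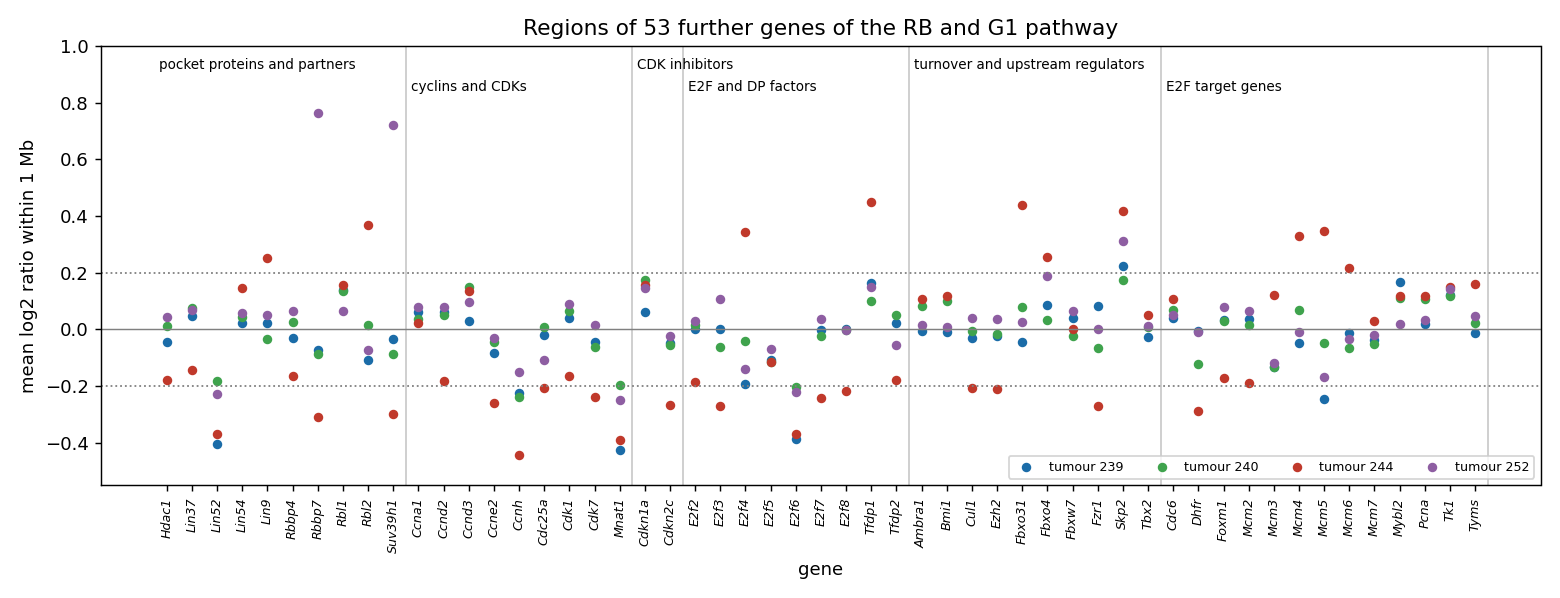
Mean log2 ratio within 1 Mb (y axis) of 53 further pathway genes (x axis), grouped by family, 1 point per tumour; dotted lines mark 0.2 and -0.2. Lin52, Mnat1, Ccnh and E2f6 lie below 0 and Skp2 above 0 in all 4 tumours, 10 of the 14 points at or above 0.2 and 17 of the 27 at or below -0.2 are of tumour 244, and Rbbp7 and Suv39h1 on the X chromosome stand apart in tumour 252.

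For each of the 9 genes, the listed pathway gene on another chromosome with the most similar 4 regional means was found by Euclidean distance over the 4 tumours. Rb1 was closest to Mcm7, a replicative helicase gene (-0.038, -0.050, 0.030 and -0.021; distance 0.044). Both Cdkn2a and Cdkn2b were closest to Cdk7 (-0.046, -0.061, -0.24 and 0.015; distances 0.048 and 0.051). Cdkn1b was closest to E2f7, an atypical repressing E2F (distance 0.035), and Cdk4 to Ezh2, the Polycomb methyltransferase (distance 0.034). Ccnd1 and Ccne1 were both closest to Cdk1, the mitotic kinase (0.040, 0.065, -0.16 and 0.090; distances 0.075 and 0.074). Cdk6 and E2f1 were closest to Tbx2, a repressor of Cdkn2a (-0.027, 0.0085, 0.050 and 0.012; distances 0.055 and 0.057). The genes most like the 6 members on chromosomes 4, 6, 7 and 10 were lowest in tumour 244, as those members were. They were picked by closeness in these same values, so this likeness is not a separate result. With 4 tumours these distances describe the arrays and are not tests.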

How the data were processed

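Genomic DNA of 4 tumours and 1 pool was measured on 2-colour Agilent mouse arrays with 180880 spots each, tumour in Cy5 and pool in Cy3 per the labels, with no dye swap. The submitters' processing notes name Agilent Feature Extraction 12.0.0 as the scan software, whereas version 12.0.1.1 and the mm9 build stand in the file headers. Per the file headers, the deposited processed intensity of each colour is background-subtracted and dye-normalised. The authors' deposited log10 ratio divides tumour by pool, and their value table repeats that log10 ratio uncentred (column medians 0.0023, 0.00233, 0.00131 and 0.000212). Mean and background intensity, per the file headers, are scanner brightness, used for normexp (offset 50). Flags for outlier, saturation and background, per the file headers, are 0 or 1.

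Each array lost its 6575 control spots and 95 to 120 outlier spots, replicate spots were averaged by probe, and the log2 ratio was centred on the median of 161460 autosomal probes, with no loess or quantile step. Own-probe means, differences from other probes within 1 Mb and regional means were each compared with 0 by limma 3.58.1 (R 4.3.3; intercept-only design, 2-sided, Benjamini-Hochberg over all genes, threshold 0.05), after a check on simulated data. Precision is limited by having 4 arrays, 1 per animal. Cdkn2b, Cdkn1b and Cdk4 were placed by gene order in a RefSeq table of GRCm38.p6, used for order only. Of 81 member probes, 79 were well above background in both colours on all arrays and 0 were saturated. Named genes were the members, their nearest named neighbours, the most similar listed gene for each, and listed genes with 3 or more probes called on own probes and region alike or with regions past 0.2 or -0.2 in 3 or more tumours; other listed genes were named after their values were seen. Members and lists were chosen with earlier results of these data known. Alternatives covered centring, background correction, the authors' table, an intensity trend, probe filters, window, summary, thresholds and each tumour left out. Placing the 3 unnamed genes by the probes between their neighbours was added after the data were seen, as were the median of 5-probe stretches and regions without their lowest probe. Other steps used Python 3.11.15, numpy 2.4.6, pandas 2.3.3, statsmodels 0.14.6 and matplotlib 3.10.9.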

Additional observations from a re-analysis of the deposited data

Results flagged for a closer look

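In 6 of 27 member results 1 tumour stood apart from the other 3 (gap over range above Dixon's critical value, which chance alone exceeds in about 1 of 20 groups). Tumour 244 was the tumour apart in 5 of them, all regional. It was lower at Cdkn2a (-0.24), Cdkn2b (-0.24), Ccnd1 (-0.12) and Ccne1 (-0.11), on chromosomes that were also lower in this tumour, and higher at Rb1 (-0.0066). Cdkn2a and Cdkn2b share most of their probes and count nearly as 1 result. At Cdk6, own probes were lowest in tumour 240, at -0.19, while the other 3 tumours lay between -0.078 and -0.063.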

How the results depend on the processing

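Across 376 alternatives to 27 member values, 313 kept direction and side of the threshold, 19 kept the direction and missed the threshold, 8 newly passed and 36 turned sign, in 19 of the 27 results, and the cause was not tested. With the intensity trend removed, the sign turned for the own-probe means of Cdkn2a (0.029), Cdkn1b (-0.051) and the differences from the surroundings of Cdkn2a (0.13), Cdkn1b (-0.0029), Cdk4 (-0.0035) and the regional mean of Cdk6 (-0.013). With normexp, the sign turned for the own-probe means of Cdkn2a (0.23), Cdkn1b (-0.18), Ccne1 (0.013), E2f1 (0.14) and the differences from the surroundings of Cdkn2a (0.38), Cdkn1b (-0.12), Ccne1 (0.012), Cdk4 (-0.087), E2f1 (0.15) and the regional means of Ccnd1 (-0.056), Cdk6 (-0.035), E2f1 (-0.011). With centring on the mode, the sign turned for the own-probe mean of Cdkn1b (-0.026) and the regional means of Cdk6 (-0.031), E2f1 (-0.012). With the median of probes, the sign turned for the own-probe means of Cdkn1b (-0.019), Cdk4 (0.0021). With windows of 2 Mb, the sign turned for the regional mean of Ccne1 (-0.0091). With placed genes read from probes between their neighbours, the sign turned for the difference from the surroundings of Cdk4 (-0.075). With windows of 0.5 Mb, the sign turned for the regional mean of Cdk6 (-0.0080). With 1 tumour left out, values whose sign turned ran over Cdkn2b own probes -0.058 to 0.023, Cdkn1b own probes -0.026 to 0.063, Cdkn1b region -0.071 to 0.016, Ccnd1 own probes -0.0082 to 0.14, Ccnd1 difference -0.036 to 0.067, Cdk4 own probes -0.046 to 0.042, Cdk4 region -0.071 to 0.0095 and Cdk6 region -0.016 to 0.017. Members called on own probes (0) became 3 with normexp, namely Rb1, Cdkn2a and Ccnd1. Members called against their surroundings (4) became 7 with normexp, 2 with the median of probes, 2 of the 5 members with at least 3 probes, and 0 to 3 with 1 tumour left out. Regional calls (0) ranged from 0 to 2 with 1 tumour left out, the 2 being Ccnd1 and Ccne1 without tumour 244. Pathway calls on own probes (21) became 7 among genes with at least 3 probes, where fewer genes were tested, and ranged from 12 up with 1 tumour left out (highest 22). Pathway regional calls (6) became 3 with centring on the mode and ranged from 0 to 11. Gained pairs (0) became 2 at a threshold of 0.1. Lost pairs (3) became 6 with centring on the mode, 5 with normexp, 1 with windows of 0.5 Mb, 6 at a threshold of 0.1 and 0 at 0.3, and ranged from 0 without tumour 244 to 3. Centring on the mode lowers tumour 244 by 0.11 and the others by 0.0075.

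No paired analysis was possible because the 4 tumours form 1 group against 1 shared pool. Genes with 1 probe, namely Ccnd1, Ccne1 and E2f1, rest on the brightness of that probe, and none of the 3 placed genes was measured by a probe of its own.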

Other observations

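Mcm3, a subunit of the replicative helicase and an E2F target, was the listed gene with the lowest own-probe mean, and it was picked out after its values were seen. Its 2 probes on chromosome 1 read -1.21, -1.46, -1.16 and -1.23 in tumours 239, 240, 244 and 252 and averaged -1.26 ± 0.13 (SD, n = 4; adjusted p = 7.96e-05). The region around it read -0.13, -0.13, 0.12 and -0.12, a mean of -0.065 ± 0.13 (SD, n = 4; adjusted p = 0.474; -0.048 without tumour 252). The own probes were below -1 in all 4 tumours, and the region lay on different sides of 0 in tumour 244 and the others. The 5 other genes of the replicative helicase, likewise named after their values were seen, did not share a direction. Mcm2 was lower too, at -0.37 ± 0.21 (SD, n = 4) over 1 probe (adjusted p = 0.015). Mcm4, at 0.73 ± 0.20 (SD, n = 4) over 1 probe (adjusted p = 0.00149), Mcm5, at 0.49 ± 0.37 (SD, n = 4) over 2 (adjusted p = 0.027), and Mcm7, at 0.55 ± 0.19 (SD, n = 4) over 1 (adjusted p = 0.00328), were higher. Mcm6 did not pass, at 0.14 ± 0.17 (SD, n = 4) over 2 probes (adjusted p = 0.184). On own probes 32.7% of all genes passed in either direction, and 43.1% of genes with 1 probe did. None of the 6 regions passed in the limma fit over 4 tumours, with adjusted p-values from 0.466 to 0.873.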
